A study of Mus musculus with 2 samples.

Results

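The genes of the cytosolic ribosome were examined for NRF1 occupancy in mouse skeletal muscle. Members were the protein-coding RefSeq genes whose symbols begin with Rpl or Rps followed by a number, or are Rpsa or one of the Rplp genes, with Rps27a and the Rps6k kinases left out. This rule gave 90 genes of 21000 protein-coding genes, namely 43 of the large subunit, 30 of the small subunit, 3 of the P stalk and 14 paralogs or other genes that share the symbol stem. It looks at names only and not at any measured value.

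The study asked how the glucocorticoid receptor, the demethylase LSD1 and NRF1 come together on muscle genes, and mapped NRF1 by chromatin immunoprecipitation followed by sequencing (ChIP-seq), which recovers the DNA a protein occupies. The labels give 1 group of 2 libraries, both from skeletal muscle of wild-type mice and both with an NRF1 antibody, and they name no treatment, sex or age. The values come from 1 deposited list of 3226 peaks on mm10, so no value has a replicate error, and the intervals below (95%, Clopper-Pearson) cover counting error over genes or peaks only. A promoter peak is one whose summit, its highest point, lies between 1000 bp before and 100 bp after an annotated transcription start, and 2607 peaks of the list met this definition.

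Ribosomal proteins coat and fold the ribosomal RNAs, and a cell makes them in near-equal amounts from genes scattered over the genome. Their messenger RNAs typically open with a run of pyrimidines, the TOP element, through which mTOR signalling controls their translation, and many of their introns carry small nucleolar RNAs. In muscle, the number of ribosomes is one of the limits on protein synthesis, and so on myofiber growth. NRF1, nuclear respiratory factor 1, binds a palindrome as a dimer and is best known for the nuclear genes of the respiratory chain. The palindrome of 10 bases found most often within 50 bp of the summits was GCGCATGCGC, in 305 peaks, against 62 for the next one, GCGCGCGCGC. A motif copy below is any match to GCGCATGCGC with at most 1 mismatch, and substitutions are numbered from 1 at the 5′ end of the copy in the sense of the gene, with the base of the palindrome first.

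The member promoters on which the results turn are shown here from the RefSeq GRCm38.p6 genome (the mm10 assembly), 5′ to 3′ in the sense of the gene, with the motif copy in capitals. These 3 are among the peaks of highest fold enrichment that hold a copy. Rpl7l1 lies at chr17:46782644-46782673 on the minus strand, Rpsa at chr9:120127662-120127775 on the plus strand and Rpl19 at chr11:98026703-98026732 on the plus strand.
Rpl7l1: cggtgaggctGCGCAAGCGCagtagctgaa
Rpsa: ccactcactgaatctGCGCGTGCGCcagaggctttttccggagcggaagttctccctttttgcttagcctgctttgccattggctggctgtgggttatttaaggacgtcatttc
Rpl19: cgccctcactGCGCATGTGCgccgcggagt

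The 2 weakest member peaks with a copy, Rpl5 at chr5:107900539-107900568 on the plus strand and Rpl7 at chr1:16104400-16104429 on the minus strand, are set beside Rpl37a at chr1:72711257-72711286 on the plus strand. Rpl37a is the 1 member that holds a copy near its start without a promoter peak.
Rpl5: gctacatactGCGCATGCGTacgtgactcc
Rpl7: aggagacagtGCGCATGCGCcacctttctc
Rpl37a: gtctaaaaccGCGCATGCGCattgcgtccc

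Rpl7 and Rpl37a both carry the exact palindrome within the first transcribed bases. In Rpl5 the copy differs from it by C10T, in Rpl19 by C8T, in Rpl7l1 by T6A and in Rpsa by A5G.

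NRF1 peaks were found at 22 of the 90 member promoters, 24.4% (interval 16 to 34.6), against 13.4% of all protein-coding genes (2808 of 21000). Each of the 22 members had 1 promoter peak. Of the small subunit genes, 12 of 30 had a peak, 40% (interval 22.7 to 59.4). Of the large subunit genes, 9 of 43 did, 20.9% (interval 10 to 36), and these intervals overlap. None of the 3 P stalk genes, whose acidic proteins recruit the elongation factors, had a peak (interval 0 to 70.8). Among the 14 paralogs and other genes the 1 with a peak was Rpl7l1, 7.14% (interval 0.181 to 33.9).

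**Figure D1:**
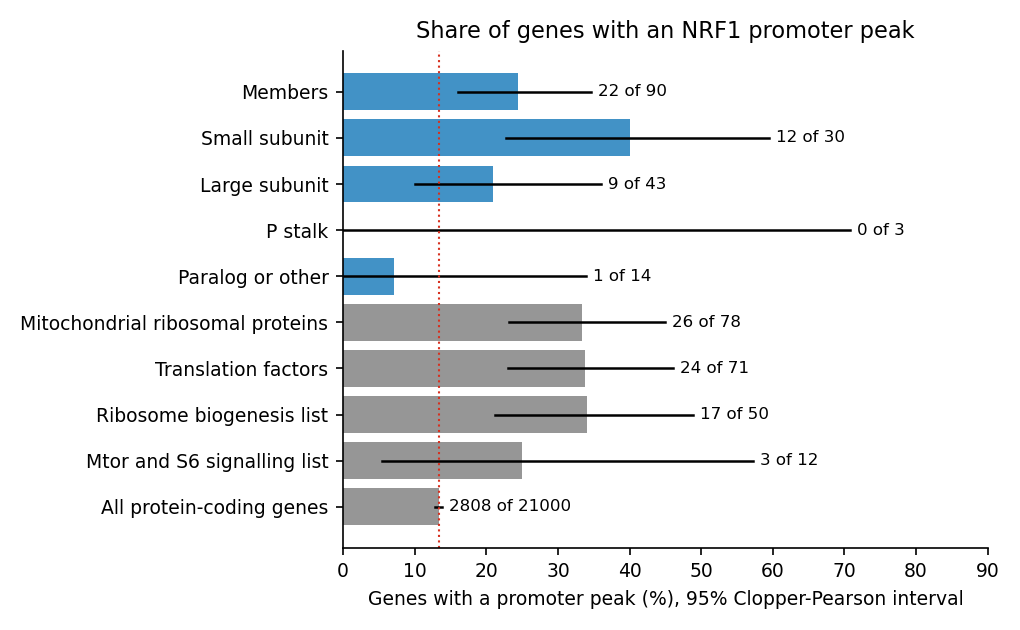
Share of genes with an NRF1 promoter peak, in percent, for the members, their roles (blue) and other gene groups (grey). Lines are 95% Clopper-Pearson intervals, counts stand beside each bar, and the dotted line is the 13.4% of all protein-coding genes. The small subunit stands at 40% and the large subunit at 20.9%, with overlapping intervals.

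The small subunit proteins with a peak lie in several regions of the particle. Rps2 and Rps9 line the path of the messenger RNA, Rps23 sits in the decoding centre and Rps16 reaches the transfer RNA in the P site. Rps10, Rps12, Rps15, Rps25, Rps29 and Rpsa also had a peak. Rps25 is known for its part in initiation at viral internal entry sites. RPS10 and RPS29 are among the genes mutated in Diamond-Blackfan anaemia. The genes of that disease were not compared as a set, so no link with a peak is read from them. The 18 small subunit genes without a promoter peak included Rps3, Rps3a1, Rps4x, Rps6, Rps7, Rps13, Rps14, Rps15a, Rps18, Rps19, Rps20, Rps21, Rps24, Rps26, Rps27 and Rps28. Rps6, the substrate of the S6 kinases, is thus in the group without a peak, with its nearest summit 108675 bp away.

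The large subunit genes with a peak were Rpl5, Rpl7, Rpl7a, Rpl10, Rpl10a, Rpl14, Rpl19, Rpl23 and Rpl35. Rpl5 binds the small 5S ribosomal RNA together with Rpl11, and that complex also holds back the p53 ligase Mdm2. The partner Rpl11 had no promoter peak. Rpl10 joins late in assembly beside the peptidyl transferase centre, Rpl10a forms the mobile stalk at the exit for transfer RNA, and Rpl35 lies at the mouth of the tunnel for the new peptide. The 34 without a promoter peak included Rpl3, Rpl4, Rpl6, Rpl8, Rpl9, Rpl11, Rpl12, Rpl13, Rpl13a, Rpl15, Rpl17, Rpl18, Rpl21, Rpl22, Rpl23a, Rpl24, Rpl26, Rpl27, Rpl27a, Rpl28, Rpl29, Rpl30, Rpl31, Rpl32, Rpl34, Rpl35a, Rpl36, Rpl36a, Rpl37, Rpl37a, Rpl38, Rpl39 and Rpl41. The genes for the partners Rpl5 and Rpl11 were thus split between the groups, and other neighbouring proteins were not compared.

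Of the paralogs, Rpl7l1, a relative of Rpl7, was the 1 with a promoter peak. Rpl3l, the form of Rpl3 made in heart and skeletal muscle, had none, although it is the paralog best known from this tissue. Its promoter was poor in CpG, with an observed-to-expected ratio of 0.111 over the 250 bp upstream and 50 bp downstream of its start, the lowest of the 90 members. Rpl22l1, Rpl39l, Rpl10l, Rps27l and Rpl36al had no peak either, and their nearest summits lay 24978 bp (Rpl36al) to 1796568 bp (Rpl22l1) away. Rpl31-ps12, Rpl32l, Rpl34-ps1, Rpl37rt, Rps19bp1, Rps23rg1 and Rps27rt completed the genes of this group without one. RefSeq also lists 325 ribosomal protein pseudogenes, the retrotransposed copies for which this family is known, and 0 of them overlapped a peak. Only uniquely mapped reads were kept, so a copy nearly identical to its parent gene could hardly yield one, and nothing is read from this count.

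The member peaks differed widely in fold enrichment over control. Rpl7l1 had 20.5, with a −log10 q of 52.5, and ranked 298 among the 2607 promoter peaks. Rpsa, whose protein is also known as the laminin receptor precursor, had 19.1. Both were above the upper quartile of all promoter peaks, 16.4.

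Rpl19 at 16.2 and Rpl7a at 15.7 lay just under that quartile. Rps10 had 13.2, Rps12 12.8 and Rps16 12.2, and in all 9 of the 22 members were at or above the median of all promoter peaks, 11.1. Rps25 at 10.8, Rpl10 at 10.4, Rpl10a at 9.82 and Rps29 at 9.65 stood just under that median. Below them came Rps23 at 9.21, Rpl35 at 8.56, Rpl23 at 8.24 and Rpl14 at 8.03. The middle of the family thus sat a little under the middle of the list, with a member median of 10.1.

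The 5 weakest peaks were below the lower quartile of all promoter peaks, 7.9. They were Rps15 at 7.32, Rpl5 at 6.59, Rpl7 at 5.67, Rps9 at 5.38 and Rps2 at 4.89. Rps9 had the lowest −log10 q of the members, 4.81, and the narrowest peak, 136 bp, the smallest width in the list. The small subunit peaks had a median fold of 11.5 (n = 12) and the large subunit peaks 8.56 (n = 9), and their ranges overlapped widely.

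**Figure D2:**
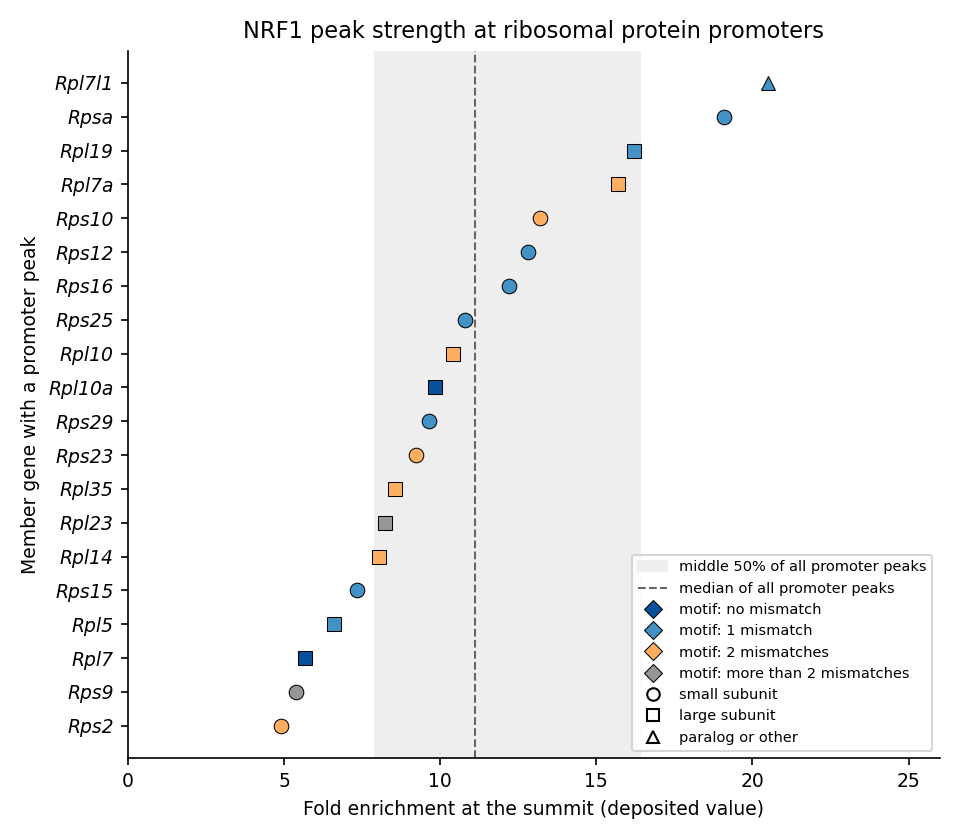
Deposited fold enrichment of 20 of the member promoter peaks, ordered by value, with colour for the fewest mismatches to the palindrome within 100 bp of the summit and marker shape for the role. The grey band is the middle 50% of all promoter peaks, 7.9 to 16.4, and the dashed line their median, 11.1, with 7 of the 20 peaks at or above it and 5 below the band.

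Most member peaks sat close to the start. The summit lay upstream of it at 17 of 22 members and within 100 bp of it at 17 of 22. Among all promoter peaks, measured to the nearest start of any gene, 78.8% of summits were upstream and 71.2% within 100 bp. The median distance was 87.5 bp for the members, to their own starts, and 57 bp for all promoter peaks, to the nearest start of any gene. The second measure can only be equal or shorter, so the 2 medians are not strictly alike. Rps25, with its summit 271 bp before the start, and Rps23, 214 bp before it, were the 2 members beyond 200 bp. The Rps25 summit was nearer the start of a neighbour on the opposite strand, Trappc4, 166 bp upstream of the Rps25 start. Rps15 at 2 bp and Rpl7 at 3 bp after the start were the nearest.

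One boundary case stood on each side of the promoter window. The summit at Rps29 was 97 bp after the start and so just inside. Rpl22, with a summit 106 bp after the start, was just outside, at a fold of 5.39 and a −log10 q of 6.13, and counted as a member without a promoter peak.

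A motif copy within 100 bp of the summit was found at 13 of the 22 member peaks, 59.1% (interval 36.4 to 79.3), against 66% of all promoter peaks (interval 64.2 to 67.8). The exact palindrome was present at 2 of them, Rpl10a and Rpl7, 9.09% against 10.9% of all promoter peaks. These shares were close to the background. Member peaks with a copy had a median fold of 12.2 (n = 13) and those without one 8.56 (n = 9), against 12.9 and 8.58 for all promoter peaks. The exact palindrome did not go with the highest folds, since Rpl10a had 9.82 and Rpl7 5.67.

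Taking at each of the 13 peaks the copy with the fewest mismatches and, among equals, the one nearest the summit (Rpsa held 2), the 13 copies took 6 forms when a form and its reverse complement were counted as 1. Rps25 had T6C and Rpsa its mirror image, A5G, a form present at 437 promoter peaks. Rpl19 had C8T and Rps12 its mirror image, G3A, a form present at only 66 promoter peaks. Rps16 and Rps29 had A5C, the most frequent of the 6 forms in the list with 611 promoter peaks. Rpl7l1 and Rps15 had T6A, with 136, and Rpl5 had C10T, with 184. The form shared by Rps12 and Rpl19 was therefore the rarest of the 6 in the list, and both peaks were above the median fold.

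At the other 9 member peaks, 7 had a match with exactly 2 mismatches and 2, Rpl23 and Rps9, had none. Among all promoter peaks 25.1% had exactly 2 mismatches at best and 8.9% had more. Rpl10 and Rpl14 held the same word, with G1A and G3A, over the summit. It is shown here in windows chosen after their values were seen, together with Rpl23, which had no match. Rpl10 lies at chrX:74270699-74270759 on the plus strand, Rpl14 at chr9:120571460-120571520 on the plus strand and Rpl23 at chr11:97782504-97782564 on the minus strand. In the first 2 the capitals mark the match with 2 mismatches.
Rpl10: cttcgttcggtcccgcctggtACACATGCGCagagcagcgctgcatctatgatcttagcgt
Rpl14: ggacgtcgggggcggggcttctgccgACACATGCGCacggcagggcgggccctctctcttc
Rpl23: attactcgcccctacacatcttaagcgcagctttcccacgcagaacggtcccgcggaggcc

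The other matches with 2 mismatches were at Rpl7a (T6G and G7C), Rps10 (G3A and C10T), Rps23 (G1A and A5C), Rpl35 (T6G and C8G) and Rps2 (G1C and T6G). The copy with at most 1 mismatch lay within 32 bp of the summit at 12 of the 13 members that had one, and the median over all 13 was 19 bp, against 13 bp for all promoter peaks.

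The copies of the members lay often on the transcribed side of the start. Of these 13 copies, 1 for each peak, 5 lay wholly before the start (Rpsa, Rps12 and Rps25 among them), 38.5% (interval 13.9 to 68.4). At all promoter peaks 75.3% of the copies did (1296 of 1721), measured to the nearest start of any gene. Copies across the start were found at Rpl7l1 and Rpl10a. The other 6, 46.2% (interval 19.2 to 74.9), began at or after it, at Rpl19, Rps15, Rps16, Rpl7, Rpl5 and Rps29, against 18.9% of the copies at all promoter peaks. In these 6 genes the first base of the copy was 3 bp (Rpl19) to 74 bp (Rps29) after the start, that is, in transcribed sequence. The difference was not tested, and it rests on the annotated starts.

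**Figure D3:**
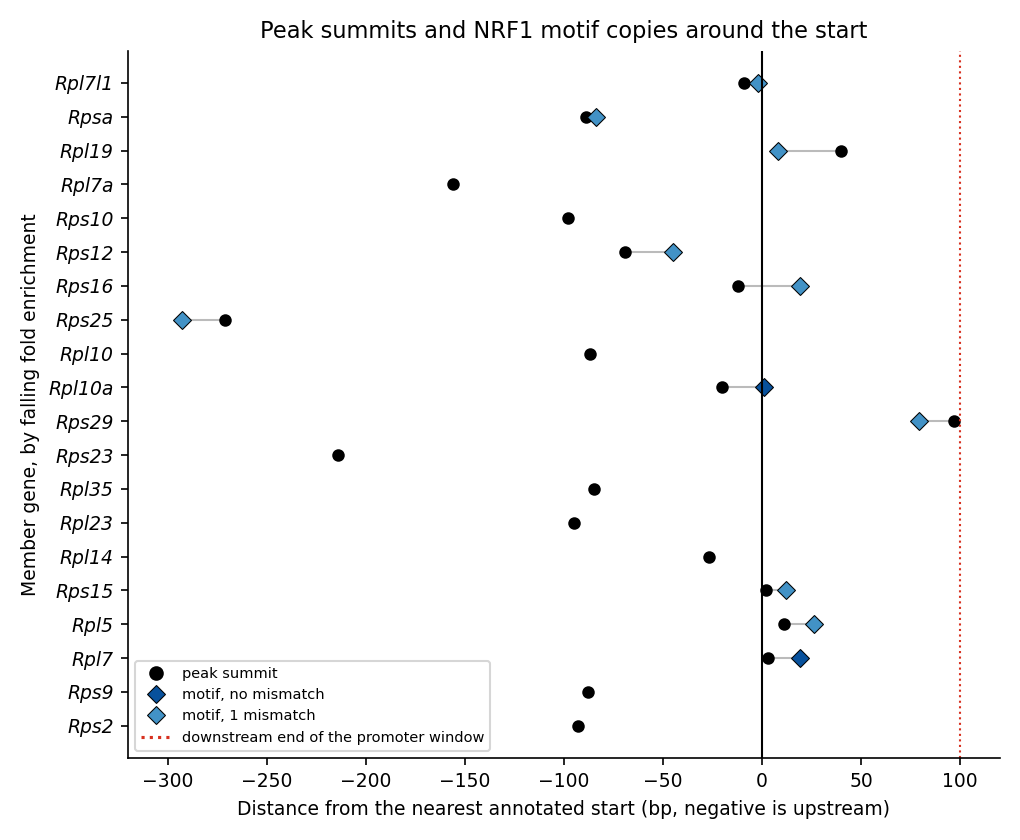
Position of the peak summit (black circles) and of the best motif copy (diamonds, by their sixth base) in bp from the nearest annotated start of each of 20 members, with negative values upstream. Members are in order of fold enrichment, a grey line joins summit and copy, and the 9 members without a diamond have no copy with at most 1 mismatch. Among the genes plotted, Rps25 holds the copy farthest upstream and Rps29 the one farthest downstream.

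The motif was then read in all 90 promoters, with or without a peak, over 250 bp upstream and 50 bp downstream of each start. As the palindrome was taken from the summits of these same peaks, a high share with a peak follows in part from that choice. The motif was present in 12 members, 13.3%, and in 9.66% of all protein-coding genes. Of these 12 members, 11 had a promoter peak, 91.7% (interval 61.5 to 99.8), against 81.5% of all genes with the motif (1654 of 2029). All 9 members with exactly 1 mismatch at best had a peak (interval 66.4 to 100), against 79.9% of such genes. With 2 mismatches at best 7 of 20 members had one, 35%, against 21.5%. With more, 4 of 58 did, 6.9% (interval 1.91 to 16.7), against 2.93%. The order of the classes was the same in the members and in all genes, apart from the exact palindrome, which only 3 members hold.

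Rpl37a was the exception among the 12. It encodes a zinc-finger protein of the large subunit and carries the exact palindrome 7 bp after its start, close to where the copies of Rpl19 (3 bp), Rps15 (7 bp) and Rpl7 (14 bp) begin, all of which had a peak. Its nearest summit was 403818 bp away. Genes of this kind were few, since 29 of the 305 genes with the exact palindrome in the window had no promoter peak. The CpG ratio of the Rpl37a promoter was 1.18 and its GC content 52.3%. In the wider window of the promoter definition 1 more member without a peak held a copy, Rps6, 897 bp before its start and with T6C.

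**Figure D4:**
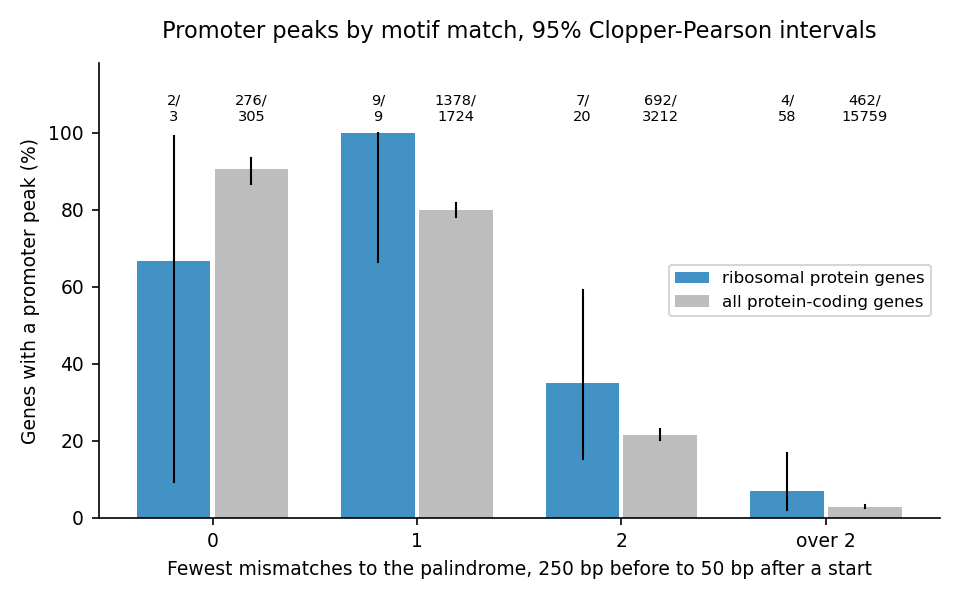
Share of genes with a promoter peak, in percent, by the fewest mismatches to the palindrome over 250 bp upstream and 50 bp downstream of a start, for the members (blue) and all protein-coding genes (grey), with 95% Clopper-Pearson intervals and counts above the bars. In the members the share runs from 9 of 9 with 1 mismatch to 7 of 20 with 2 and 4 of 58 with more.

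Member promoters were rich in CpG. A CpG ratio of at least 0.6 was found in 76 of 90 members, 84.4%, and in 48.4% of all protein-coding genes. Within that class the members had a peak at 27.6% (21 of 76, interval 18 to 39.1) and all genes at 24.9% (2524 of 10155), so the share of members was near the background of its own class. Under a ratio of 0.6 the 1 member of 14 with a peak was Rps25, at 0.542, against 2.62% of all genes. With a ratio of at least 0.6 and no motif copy in the promoter, 9 of 62 members had a peak, 14.5% (interval 6.86 to 25.8), against 9.79% of all genes.

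Members with and without a peak were also compared by base composition. The median GC content was 59% in the 22 members with a peak and 56.2% in the 68 without, against 62.7% in all genes with a peak and 56.7% in all genes. The median CpG ratio was 0.85 with a peak and 0.873 without. At a GC content of at least 60% 10 of 30 members had a peak, 33.3% (interval 17.3 to 52.8), against 22% of all genes, and below it 12 of 60 did, 20% (interval 10.8 to 32.3), against 7.81%. Rpl7, with a GC content of 43.7%, was the member with a peak that had the least GC, and Rps10, with 72.3%, had the most of all 90. The ranges of the members with and without a peak overlapped on both measures.

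**Figure D5:**
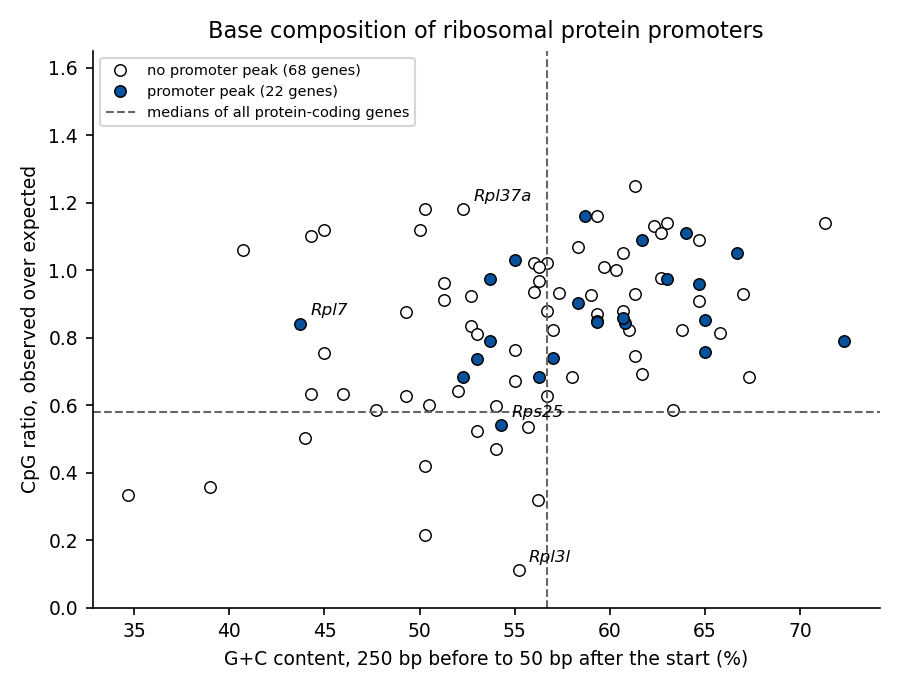
GC content (x axis, percent) and CpG ratio (y axis, observed over expected) of the 90 member promoters over 250 bp upstream and 50 bp downstream of the start, filled for the 22 with an NRF1 promoter peak and open for the 68 without. Dashed lines are the medians of all protein-coding genes, 56.7% and 0.58, and the filled and open points intermingle.

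Other sequence features for which ribosomal protein promoters are known were counted in the same window on both strands. The ETS letters CCGGAAG were in 35 members, 38.9%, against 13.2% of all genes, and 7 of the 35 had a peak, 20%, against 24.6% of all genes with these letters. The YY1 letters ATGGCGG were in 15 members, 16.7% against 6.24%, and 3 of the 15 had a peak, 20% against 23%. The SP1 letters GGGCGG were in 53 members, 58.9% against 51.4%, and 16 of the 53 had a peak, 30.2% against 19.7%. None of the 3 words contains another, though neighbouring matches may overlap. ETS and YY1 letters were thus commoner in the members than in all genes. Members holding them had a peak at rates with wide intervals, 8.44 to 36.9 for ETS and 4.33 to 48.1 for YY1. These include the 24.6% and 23% of all genes holding them, and the SP1 interval, 18.3 to 44.3, includes 19.7%.

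A run of at least 8 pyrimidines within 20 bp of the start, on the transcript strand, stood in 39 members, 43.3%, against 19.2% of all genes. Of these, 11 had a peak, 28.2% (interval 15 to 44.9), against 12.3% of all genes with such a run. Among the members without such a run 11 of 51 did, 21.6%, against 13.6% of all genes without one. Genes for small nucleolar RNAs lay inside 30 members, 33.3%, against 1.07% of all genes. Of these hosts 8 had a peak, 26.7% (interval 12.3 to 45.9), near the 24.6% of all host genes (55 of 224). Of the 60 members without one 14 had a peak, 23.3% (interval 13.4 to 36), against 13.3% of all such genes. The hosts with a peak were Rpl5, Rpl7a, Rpl10, Rpl23, Rps2, Rps12, Rps16 and Rpsa.

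Some member peaks lay in more than 1 promoter. At 6 of the 22 the summit also lay in the promoter of another gene, which was protein-coding at 1 of them. That was Med22, a subunit of Mediator, whose start faces that of Rpl7a. The summit was 9 bp before the start of Med22 and 156 bp before that of Rpl7a, so the peak was nearer the neighbour. The others were non-coding, with Rps2 next to Snhg9, the summit being 5 bp before the start of the latter, Rps10 next to Gm15420, Rps16 with AF357399 inside it, Rpl23 with Snora21 inside it, and Rps29 next to Rn7s1. The Rps25 summit lay in no other promoter window, although it was nearer the start of protein-coding Trappc4 than that of Rps25. An opposite start within 1000 bp upstream was found for 16 members, of which 5 had a peak, 31.2%, the same as the 31.2% of all genes with such a partner. Of the 74 members with no such partner 17 had a peak, 23% (interval 14 to 34.2), against 11% of all such genes.

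Away from the promoters few peaks came near. For the 68 members without a promoter peak the nearest summit lay at a median of 63251 bp, and for 61 of them it was over 10000 bp away. Only Rpl22, Rpl3l and Rpl8 had one within 5000 bp. The summit 3380 bp before the start of Rpl3l, with a fold of 18.2, was 23 bp before that of Ndufb10, a subunit of respiratory complex I. The summit 4217 bp before the start of Rpl8, with a fold of 12.4 and the exact palindrome, was 87 bp before that of Commd5. Both peaks were thus in promoters of other genes, while the one at Rpl22 was inside the gene.

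Genes that work with these proteins were set beside them. Of ribosomal proteins left out by the rule, Fau, made as a fusion with a ubiquitin-like protein, had a promoter peak, and Rps27a and Rack1 had none. The fold was 25 at Fau, above every member, with no motif match within 2 mismatches. Mitochondrial ribosomal protein genes had a promoter peak at 26 of 78, 33.3% (interval 23.1 to 44.9), with a median fold of 10.7. Translation factor genes of the Eif and Eef families had one at 24 of 71, 33.8% (interval 23 to 46), with a median of 12.1. The intervals of both include the 24.4% of the members, and the share of all protein-coding genes was 13.4%. A motif copy in the promoter was held by 16.7% of members, 26.9% of mitochondrial ribosomal protein genes, 25.4% of translation factor genes and 12.1% of all protein-coding genes.

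Ribosome biogenesis genes, from a list of 50, had a promoter peak at 17, 34% (interval 21.2 to 48.8), against 13.4% of all protein-coding genes. Their folds were 6.56 to 21.4. The highest was Nob1, the nuclease that makes the last cut in the RNA of the small subunit, at 21.4. Its partner Pno1, with the exact palindrome, had 16.4, and Ncl, the nucleolar protein nucleolin, also 16.4. Wdr43 had 20 and Bop1, part of the PeBoW complex of the large subunit, 17.9, whereas Pes1 of the same complex had no promoter peak. Of 12 genes of mTOR and S6 signalling 3 had one, 25% (interval 5.49 to 57.2), against 13.4% of all protein-coding genes. They were the S6 kinase gene Rps6kb1 at 18.2, the cap-binding factor gene Eif4e at 8.79 and the mTOR activator gene Rheb at 7.07. Mtor itself and Larp1, which binds TOP messenger RNAs, had none.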

How the data were processed

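NRF1 ChIP-seq libraries of wild-type skeletal muscle were described by the labels as 2, and the authors deposited 1 peak list, whose peak names carry the title of replicate 1. The reporting summary of the study names replicate 2 as input, which conflicts with its label, and no separate values of it were used. As the methods state, the authors mapped single-end reads to mm10 with Bowtie, kept uniquely mapped reads and called peaks with MACS2. The deposited columns used were the peak and summit positions, the fold enrichment, a ratio of the summit signal over control, and the −log10 q-value given by the authors. The methods name the broad option of MACS2 and a false discovery rate limit of 0.01, whereas the list has the narrow layout and 7 of its 3226 peaks, none at a member promoter, exceed that limit. Its total also differs from the count of sites in the paper. Whether that count came from a filtered form of this list was not tested. The list does not give the read depth, which sets how weak a site can be and still be called. Reads from sequence with near-identical copies were dropped by unique mapping, and how far this touches member promoters was not measured.

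Here, starts of 45756 known RefSeq transcripts (GRCm38.p6) defined promoters. Intervals were Clopper-Pearson (scipy 1.17.1), and the scripts were tested on simulated peaks. No group comparison was tested, as there is 1 list. Genes named were all members with a promoter peak, the paralogs with known symbols, members with the motif near a start and members with a summit within 5000 bp, besides listed genes. Some genes are not reported here by name and are left out of the plots by gene, but stay in the counts. Base composition is the median over the starts of a gene, and features count if any start has them. Members, lists and class limits (CpG ratio of 0.6, pyrimidine run of 8) were chosen with earlier results of these data known. The promoter window, peak threshold, set of starts, motif mismatches and motif window were varied.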

Additional observations from a re-analysis of the deposited data

How the results depend on the processing

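Of 51 alternative values for 9 results, 35 stayed within the spread of the main value. The count and the percent of members with a promoter peak are among the 9, although they are the same result. The interval of that percent is wide, 16 to 34.6, so small changes of setting could hardly leave it. The members with a promoter peak numbered 21 to 23, gaining Rpl22 under each of the 3 other definitions of a promoter peak and losing Rps9 at a q-value of at most 1e-05 and Rps2 at a fold of at least 5. The percent of all protein-coding genes with a promoter peak moved from 13.4 to 14.1 with 500 bp either side, 14.7 with 2000 bp before to 500 bp after, 14.2 with any overlap, 12.8 under either stricter peak threshold and 13.9 with predicted starts added. Member peaks with the motif were 2 with no mismatch and 20 with at most 2. The percent of all promoter peaks with the motif moved from 66 to 10.9 with no mismatch, 91.1 with at most 2, 60.1 within 50 bp of the summit, 67.9 at the stricter q-value and 68 at the stricter fold. Members without a peak that hold the motif became 2 in the window of 1000 bp before to 100 bp after the start. The percent of genes without a peak that hold it moved from 2.06 to 0.159 with no mismatch and 3.45 in that wider window. Each change follows from the setting itself, which admits more or fewer matches, peaks or starts. Leaving out a replicate could not be done, as there is 1 list. No paired analysis was possible because no groups were compared. Depth limits the weak end of the list, where Rps9, Rps2 and Rpl22 stand, and a missing peak says only that the threshold was not passed.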
